A study of Mus musculus with 8 samples.

Results

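Cells of pups reared in chronic hypoxia were compared with those of pups kept in normal air, in tdTomato-positive cells of the mouse brain at postnatal day 12 (P12). The comparison took 4 of the 8 libraries of the study by their labels, 2 labelled Hx (hypoxia) and 2 labelled Nx (normoxia), and used all of their gene rows. The other 4 libraries are embryonic and entered no contrast. The red fluorescent protein tdTomato marks cells, and the labels call the marked ones progenitors of the brain. Hypoxic pups were kept at 10% oxygen for 8 days, from P3 until P11, and normoxic pups in normal air. Mothers of the 2 groups were swapped at P6 and at P9. All 4 libraries were made from 400 pg of total RNA. The promoter or Cre line behind the reporter, the strain, the sex and the number of animals per library are not given in the sources used here. P-values therefore measure only the spread between libraries, which may be technical. The question, from the title of the study, is which transcriptional and signalling changes accompany the reactivation of cortical progenitors after neonatal injury.

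Progenitors in the wall of the lateral ventricle keep dividing after birth and give rise to olfactory bulb interneurons, astrocytes and oligodendrocytes. Low oxygen stops the prolyl hydroxylases (Egln genes) from tagging hypoxia-inducible factors (HIF) for destruction. Stabilised HIF binds DNA together with Arnt and turns on genes of glucose uptake, glycolysis and vessel growth, and its activity falls again when oxygen returns. Rearing newborn rodents in low oxygen is an established model of the diffuse brain injury of preterm birth, in which oligodendrocyte progenitors and their maturation have been studied most.

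The libraries held 36252027 to 46023539 counts in gene rows. Fewer genes reached 10 counts in hypoxia (12785 and 11695) than in normoxia (14129 and 16468). The hypoxic libraries differed from each other about as much as from the normoxic ones. Across 14836 genes, log2(CPM + 1) correlated with r = 0.62 between the hypoxic libraries, 0.78 between the normoxic libraries and 0.63 to 0.72 between groups, where CPM is edgeR's counts per mega-count of TMM-scaled library size and genes are not independent replicates. Of the 8287 genes at 10 CPM or more in hypoxic library 1, 756 (9.12%) had at most 3 counts in hypoxic library 2, and 590 of 7456 (7.91%) did in the reverse direction. Between the normoxic libraries this held for 219 of 8616 (2.54%) and 264 of 9263 (2.85%), and between embryonic replicates for 0 of 9855 to 0 of 10141 genes. From a normoxic to a hypoxic library it held for 8.71% to 9.74% of genes. Genes near 0 in a hypoxic library were thus about as frequent when the partner was the other hypoxic library as when it was a normoxic one. The part that these missing genes play in the differences below was not tested.

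**Figure D1:**
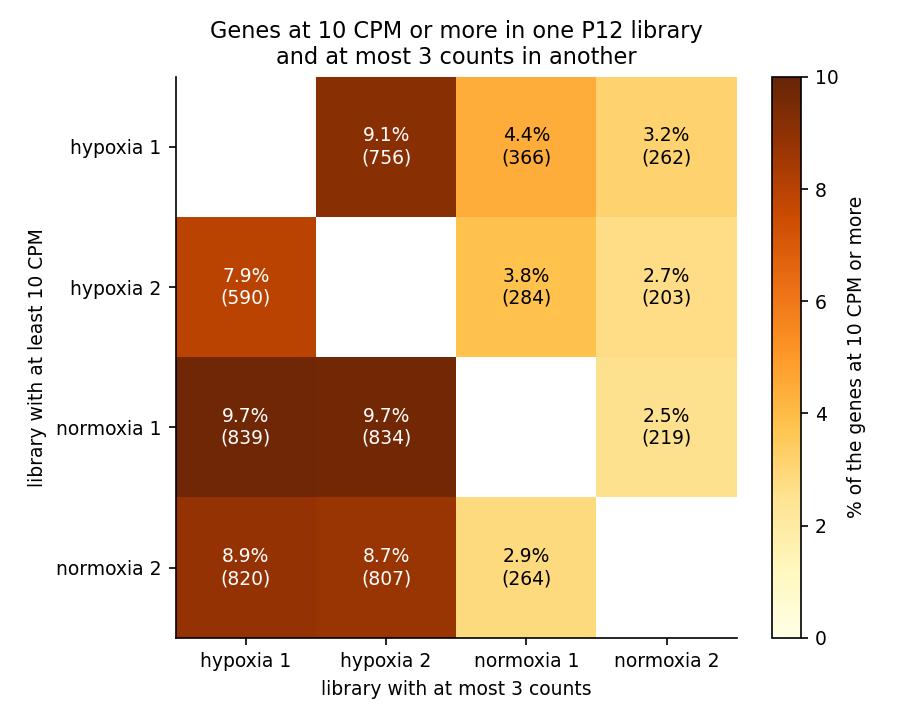
For each pair of P12 libraries, the share of genes at 10 CPM or more in the library of the row that had at most 3 counts in the library of the column, in percent and (in brackets) in genes. Shares reach 9.12% between the 2 hypoxic libraries and 2.85% between the 2 normoxic libraries.

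edgeR's quasi-likelihood test on the 4 libraries, with Benjamini-Hochberg adjustment over 14836 genes, called 0 genes (0.0% higher and 0.0% lower), and the smallest adjusted p was 0.341. At an unadjusted p under 0.05, 199 genes were higher (1.34%) and 1359 lower (9.16%). These counts depended on single libraries: leaving out normoxic replicate 1 gave 42 higher and 259 lower, and leaving out normoxic replicate 2 gave 169 and 240. Leaving out a hypoxic library gave 576 and 1808 (replicate 1) or 414 and 1354 (replicate 2). DESeq2 on the same libraries called 116 genes higher (0.782%) and 1247 lower (8.41%), limma-voom called 0, and edgeR with the spread shared over all 8 libraries called 39 higher (0.196%) and 563 lower (2.82%). No difference named below passed edgeR's test on the 4 libraries, and each is given as a log2 fold change of hypoxia against normoxia with its standard error (SE, n = 2 libraries per group). The SE is the size of the fold change divided by the square root of the test's F statistic. It was not estimated separately and adds nothing to the p-value. An exact permutation test of 1 gene with 2 libraries against 2 cannot give a p below 0.333. Groups are therefore described by whether they overlap. Exons of some named genes, among them Bmp4, Tnr, Pdgfra, Gpr17, Ppp1r1b, Meg3, Grin2b and E2f8, overlap those of other annotated genes, and such counts may be shared between them. For 2354 genes (15.9%) the hypoxic values were both above the normoxic ones, and for 3185 (21.5%) both below. Lists of genes below are set against these shares unless stated otherwise. With 1 library left out the counts were 4415 to 6032 and 5421 to 7050, since fewer values then need to be in order. Among 4843 genes at 10 CPM or more in all 4 libraries, 1241 (25.6%) were higher and 517 (10.7%) lower, a selection that removes genes near 0 in any library. For lists whose members mostly reach that level, these shares are the nearer background.

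Mitosis genes lay on the higher side after hypoxia. Of 29 listed genes of the G2 and M phases, all of them tested, 24 had a positive fold change, and in 14 (48.3%, against 15.9% of all genes) the hypoxic libraries both lay above the normoxic ones, while 0 lay below. The median log2 fold change was 1.05, against 0.07 over all genes. The promoters of the leading members are shown because genes of this phase are known to share a cell cycle homology region (CHR, TTTGAA) and CCAAT boxes, through which the DREAM and MuvB complexes and NF-Y act. The windows are RefSeq promoters on GRCm38.p6, from 250 bases before to 50 after the gene start, with TTTGAA and CCAAT on either strand in capitals; the windows of Kif20b, Kif11 and Plk1 lie at chr19:34922108-34922407, chr19:37376132-37376431 and chr7:122159185-122159484, all on the plus strand.
Kif20b: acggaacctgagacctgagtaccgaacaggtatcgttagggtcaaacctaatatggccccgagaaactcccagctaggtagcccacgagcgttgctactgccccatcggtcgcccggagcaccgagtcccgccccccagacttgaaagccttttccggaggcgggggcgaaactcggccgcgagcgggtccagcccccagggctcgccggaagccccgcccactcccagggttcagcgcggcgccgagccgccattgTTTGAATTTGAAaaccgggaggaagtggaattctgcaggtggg
Kif11: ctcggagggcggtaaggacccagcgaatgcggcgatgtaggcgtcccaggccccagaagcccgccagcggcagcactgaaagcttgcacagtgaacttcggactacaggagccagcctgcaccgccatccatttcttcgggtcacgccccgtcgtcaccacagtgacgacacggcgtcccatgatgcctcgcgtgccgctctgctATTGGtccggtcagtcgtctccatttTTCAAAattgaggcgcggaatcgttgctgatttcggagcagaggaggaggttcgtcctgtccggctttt
Plk1: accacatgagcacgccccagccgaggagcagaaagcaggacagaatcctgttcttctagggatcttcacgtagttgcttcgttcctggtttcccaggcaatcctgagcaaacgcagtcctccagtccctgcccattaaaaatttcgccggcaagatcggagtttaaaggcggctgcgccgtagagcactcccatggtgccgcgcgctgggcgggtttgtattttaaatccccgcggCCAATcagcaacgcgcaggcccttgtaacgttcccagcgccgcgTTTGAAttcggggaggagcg

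TTTGAA stood in 19 of the 25 mitosis promoters with a RefSeq entry (76.0%), in 3 of 23 promoters of S phase genes (13%) and in 4893 of 27025 promoters of all genes (18.1%). CCAAT stood in 76.0% of the mitosis promoters, 56.5% of the S phase promoters and 37.9% of all promoters. Of the 19 mitosis genes with TTTGAA, 9 were higher without overlap (median log2 fold change 0.69), as were 2 of the 6 without it (median 1.44). A match describes the letters in these windows and not a bound site.

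Kif20b, a kinesin of cytokinesis, stood at 8.48 and 6.94 CPM in the hypoxic libraries and at 0.0231 and 0.0241 CPM, 1 count each, in the normoxic ones. The ratio was 330 with a 95% counting interval of 91.0 to 2732. Kif11, the kinesin that pushes the spindle poles apart, stood at 140 and 229 CPM against 54.9 and 39.4 (log2 fold change 1.97, SE 0.55). Plk1, the kinase that drives entry into mitosis, stood at 249 and 400 CPM against 115 and 66.6 (1.84, SE 0.52). In each of these 3 genes the hypoxic libraries both lay above the normoxic ones. Nusap1, a protein that bundles spindle microtubules, stood at 111 and 169 CPM against 34.0 and 40.0 (1.92, SE 0.58). Mki67, the proliferation marker, was higher in both hypoxic libraries by a smaller margin, at 130 and 97.4 CPM against 69.7 and 58.4 (0.83, SE 0.54). Exons of Plk1 and Nusap1 overlap those of Gm44985 and Oip5, and the strand setting of the counting is not known.

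S phase genes were split. Of 30 listed genes of DNA replication 29 were tested, 16 with a positive and 13 with a negative fold change (median 0.04). In 8 (27.6%) both hypoxic libraries were higher and in 4 (13.8%) both were lower. The subunits of ribonucleotide reductase, the enzyme that makes deoxynucleotides, went opposite ways. Rrm2, the subunit made in S phase, stood at 304 and 217 CPM in hypoxia against 42.3 and 103 in normoxia (1.85, SE 0.61), while Rrm1, the catalytic subunit, stood at 9.01 and 17.5 against 208 and 85.2 (-3.47, SE 0.83). Pola1, the catalytic subunit of DNA polymerase alpha, had 0.217 and 0.230 CPM against 10.8 and 17.2 (-5.95, SE 1.70). Genes of entry into the cycle lay near the background, with 3 of 17 tested higher (17.6%) and 2 lower (11.8%). Ccnd2, a G1 cyclin of neural progenitors, stood at 770 and 872 CPM against 522 and 407 (0.82, SE 0.35). Dnmt1, which copies DNA methylation at replication forks, stood at 109 and 112 CPM against 26.5 and 39.8 (1.73, SE 0.63).

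Oligodendrocyte lineage genes also lay on the higher side. All 13 listed progenitor genes were tested, 12 with a positive fold change, and in 8 (61.5%) both hypoxic libraries were higher, with 0 lower (median 1.06). Pdgfra, the growth factor receptor that marks these progenitors (GRCm38 chr5:75152292-75198215), stood at 103 and 320 CPM in hypoxia against 39.4 and 54.4 in normoxia (2.17, SE 0.73). Olig2, a transcription factor of the lineage, stood at 85.4 and 127 CPM against 32.7 and 18.3 (2.06, SE 0.72), and the groups were well apart. Sox10, another, overlapped between groups, at 67.2 and 16.3 CPM against 36.2 and 36.0 (0.21, SE 1.04). Gpr17, a receptor of progenitors about to differentiate, stood at 251 and 564 CPM against 149 and 83.7 (1.81, SE 0.61). Neu4, a sialidase, stood at 34.1 and 51.1 CPM against 0.0923 and 1.97 (5.36, SE 1.99), and 1 normoxic value was close to 0. Cspg4 (NG2), another defining marker, overlapped between groups, at 2.77 and 16.7 CPM against 25.3 and 15.5.

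Of 14 listed genes of maturing oligodendrocytes 8 passed the filter on low counts, all 8 with a positive fold change, and 6 (75%) were higher without overlap (median 1.85). Mbp, myelin basic protein, stood at 155 and 132 CPM in hypoxia against 12.6 and 43.4 in normoxia (2.36, SE 0.82). Bcas1, a marker of cells that begin to myelinate, had 52.5 and 113 CPM against 37.4 and 15.02 (1.66, SE 0.90). Genes of mature myelin were near 0 in all 4 libraries or present in 1 of them, which was normoxic. Mal, Opalin and Ermn had no count anywhere. Mag and Mobp stood at 9.36 and 12.3 CPM in normoxic library 2, with at most 5 counts in any other library. Mog stood at 1.08 CPM in normoxic library 1 and had no count elsewhere. These untested members thus did not share the direction of the tested ones. Summed over the list, maturing genes came to 972 and 1908 CPM in hypoxia against 200 and 527 in normoxia, and progenitor genes to 2378 and 2897 against 1464 and 1442. In whole libraries, more cells of a type and more RNA per cell cannot be told apart.

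Astrocyte and radial glia genes differed less. Of 18 listed astrocyte genes 17 were tested, 15 with a positive fold change (median 0.39); 5 (29.4%) were higher without overlap and 1, Gfap, lower. That number of higher members was 1 to 8 under other scalings of library size and 8 to 12 with 1 library left out. Of the 16 astrocyte genes at 10 CPM or more in all 4 libraries, 5 were higher and 1 lower (median 0.44). Over all genes at that level 25.6% were higher and 10.7% lower (median 0.25). Gfap, the intermediate filament of astrocytes, stood at 594 and 504 CPM in hypoxia against 855 and 653 in normoxia (-0.46, SE 0.35), and Aqp4, the water channel of their endfeet, at 125 and 127 against 94.4 and 78.1 (0.54, SE 0.48). Of 18 radial glia and neural stem cell genes, all tested, 6 (33.3%) were higher and 1 lower (median 0.40), and 10 were higher without hypoxic replicate 2 and 12 without normoxic replicate 2. Of the 16 radial glia and stem cell genes at 10 CPM or more in all 4 libraries, 5 were higher and 0 lower (median 0.40). Nes, which encodes nestin, stood at 35.4 and 54.9 CPM against 4.62 and 14.8 (2.22, SE 1.18), and Fabp7, a fatty acid binding protein of radial glia, at 453 and 496 against 319 and 231 (0.79, SE 0.37). Pax6 and Sox2, defining factors of cortical and neural progenitors, overlapped: Pax6 at 108 and 316 CPM against 231 and 96.1, Sox2 at 83.7 and 49.2 against 39.3 and 63.0.

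Intermediate progenitor genes showed no ordering of the groups. Of 15 listed genes 9 were tested, 0 higher and 1 lower without overlap (11.1%), with a median of -0.10. Eomes (Tbr2), which defines intermediate progenitors of the cortex, stood at 9.25 and 60.5 CPM in hypoxia against 16.5 and 46.7 in normoxia (0.14, SE 1.31). Neurog2, which starts cortical neurogenesis, stood at 23.7 and 9.42 CPM against 0.439 and 33.1 (-0.02, SE 2.06). The spread within each group was larger than the difference between them, and SEs this wide leave room for differences of several fold in either direction.

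**Figure D2:**
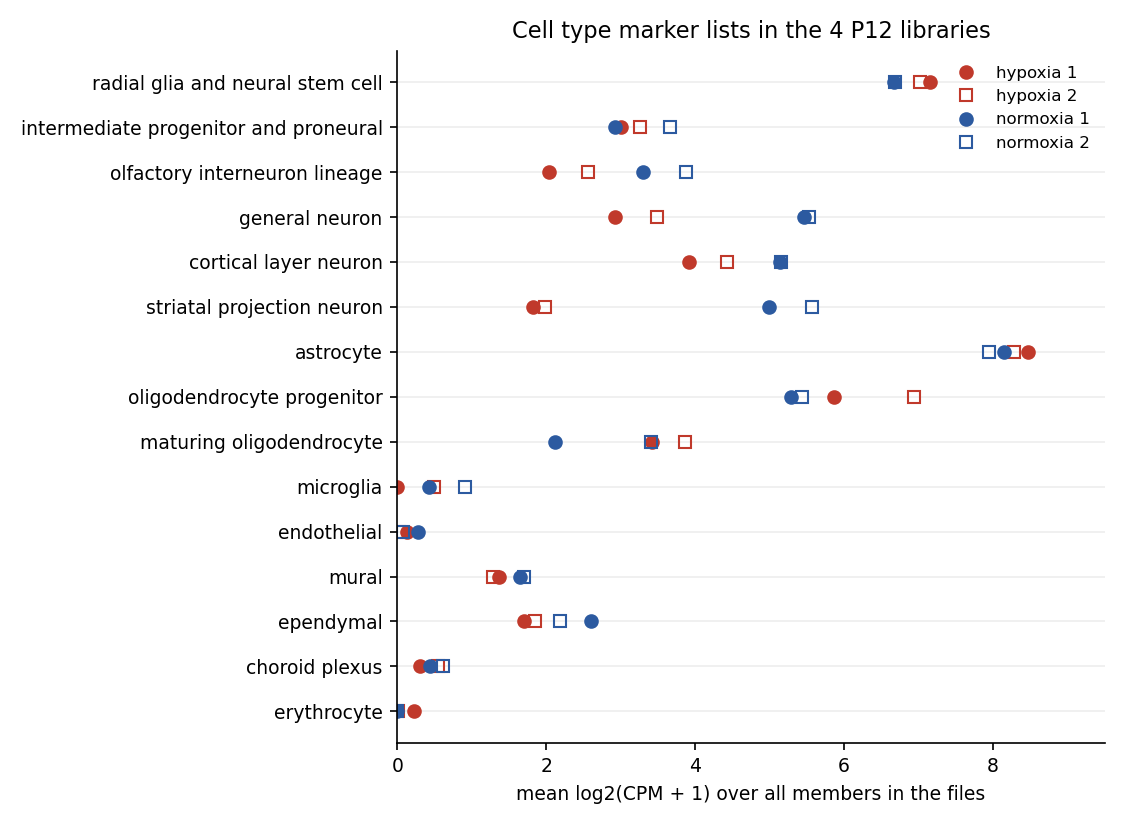
Mean log2(CPM + 1) over all members of each cell type marker list (rows) in the 2 hypoxic (red) and 2 normoxic (blue) libraries, replicate 1 filled and replicate 2 open. The 2 hypoxic libraries lie left of both normoxic ones for the neuron lists and also for the ependymal and mural lists. Microglia, endothelial, choroid plexus and erythrocyte lists stay near 0.

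Signalling genes known from progenitors and early glia were among those higher in hypoxia. Bmp4, a ligand of the bone morphogenetic protein pathway (GRCm38 chr14:46383520-46390669), stood at 91.1 and 226 CPM in hypoxia against 19.6 and 15.4 in normoxia (3.18, SE 0.74). Its receptor Bmpr1b stood at 91.8 and 21.5 CPM against 1.62 and 1.49 (5.19, SE 1.38), and Smad9, a transducer of the pathway, went the other way at 0.0722 and 0.0576 against 18.0 and 7.61 (-7.55, SE 1.89). Over 21 tested genes of the pathway 5 (23.8%) were higher and 4 (19.0%) lower, near the background. Of 14 listed hedgehog pathway genes 12 were tested, 10 with a positive fold change, and 5 (41.7%) were higher and 0 lower (median 0.92; 9 higher without hypoxic replicate 1). Ptch1, the hedgehog receptor and itself a target of the pathway, stood at 84.8 and 197 CPM against 37.1 and 52.2 (1.66, SE 0.68). Gli1 overlapped between groups, at 9.97 and 0.144 CPM against 12.3 and 1.32 (-0.43, SE 2.32), as did Smo and Sufu. Gas1, a co-receptor, stood at 88.1 and 265 CPM against 38.2 and 79.9 (1.58, SE 0.78), while the ligand Shh had at most 0.02 CPM in any library.

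Wnt target genes included Axin2 (GRCm38 chr11:108920349-108950783), a feedback inhibitor commonly read as a reporter of beta-catenin activity. Axin2 stood at 84.5 and 78.1 CPM in hypoxia against 3.37 and 11.7 in normoxia (3.44, SE 1.05). Nkd1, another feedback inhibitor, stood at 43.7 and 78.6 CPM against 7.39 and 11.2 (2.71, SE 0.98), so for both genes every hypoxic value was above every normoxic one. The list held targets together with the factors Tcf7l1 and Tcf7l2 and the inhibitors Sfrp1 and Wif1, and 14 of its 19 genes were tested. Its members Notum, Sp5, Znrf3 and Ccnd1 overlapped between groups. Of the 14 genes, 5 (35.7%) were higher, Tcf7l2 among them, and 3 (21.4%) lower, Sfrp1 and the target Myc among them (median 0.65). The shares thus do not describe targets alone. Tcf7 was also among the lower genes, at 0.0482 and 0.0864 CPM against 19.3 and 0.361 (-7.13, SE 2.71), and Lef1 had 0 or 1 counts in every library and was not tested. Ctnnb1, which encodes beta-catenin, stood at 247 and 170 CPM against 155 and 119 (0.60, SE 0.45). Of 21 genes of beta-catenin and its destruction machinery 5 (23.8%) were higher and 4 (19.0%) lower. The co-receptor Lrp6 stood at 139 and 128 CPM against 52.7 and 56.2 (1.29, SE 0.51). Bcl9l went the other way, at 0.289 and 0.720 CPM against 15.1 and 20.2 (-5.12, SE 1.66).

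The machinery of N6-methyladenosine (m6A), the methyl mark on messenger RNA, held 20 tested genes, of which 5 (25%) were higher and 1 (5.0%) lower (median 0.38). Mettl14, which binds RNA in the m6A writer, stood at 61.8 and 109 CPM in hypoxia against 21.9 and 20.8 in normoxia (2.0, SE 0.76). Its catalytic partner Mettl3 overlapped between groups, at 12.7 and 0.0864 CPM against 19.9 and 1.88 (-0.76, SE 2.47). Ythdf3, a reader of the mark, stood at 170 and 113 CPM against 41.5 and 43.7 (1.73, SE 0.56). In the gp130 cytokine pathway, which drives astrocyte formation, the ligand Ctf1 (cardiotrophin 1) had no count in normoxia and 15.7 and 58.1 CPM in hypoxia, at least 521-fold higher with 3 counts per library as the floor. Its exons overlap those of Ctf2. The pathway as a whole lay near the background, with 3 of 13 tested genes higher (23.1%) and 2 lower (15.4%). FGF and EGF genes did too, with 4 of 19 higher (21.1%) and 3 lower (15.8%), and 0 of 19 tested Notch genes were higher and 4 (21.1%) lower. Nrarp, a feedback target of Notch, stood at 0.0963 and 0.173 CPM against 10.5 and 9.75 (-6.21, SE 1.72).

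Lists of neuron genes lay on the lower side. The lowest median of all lists was that of striatal projection neurons, the inhibitory output neurons beneath the cortex. Of 16 listed genes 15 were tested, 14 with a negative fold change, and in 12 (80.0%, against 21.5% of all genes) both hypoxic libraries lay below both normoxic ones, with 0 above (median -6.34). DESeq2 on the P12 libraries called 7 of them lower, with 8.41% of all genes so called, edgeR on all 8 libraries called 2 and edgeR on the 4 P12 libraries 0. Ppp1r1b (GRCm38 chr11:98348404-98357796), which encodes DARPP-32, the dopamine signal integrator of these neurons, stood at 0.120 and 0.230 CPM in hypoxia against 498 and 572 in normoxia (-11.56, SE 0.69). Drd2, a dopamine receptor, had no count in hypoxia and 35.9 and 27.9 CPM in normoxia, at least 402-fold lower. Penk, the enkephalin precursor, had no count in hypoxia against 28.9 and 32.4 CPM, at least 387-fold lower. Rasd2, a striatal GTPase, stood at 0.0241 and 0.115 CPM against 64.9 and 73.8 (-9.92, SE 1.57). Summed over the list, levels were 424 and 598 CPM in hypoxia against 1633 and 2050 in normoxia.

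Synapse genes were lower in the same manner. Of 24 listed genes of synaptic vesicles and release 22 were tested, and 14 (63.6%) were lower and 0 higher without overlap (median -2.71). Snap25, a SNARE protein of vesicle fusion, stood at 0.433 and 0.259 CPM in hypoxia against 62.4 and 64.7 in normoxia (-7.50, SE 1.24). Syt1, the calcium sensor of release, had 0 and 3 counts in hypoxia against 94.6 and 43.3 CPM, a ratio of 1765 with a 95% counting interval of 604 to 8561. Of 26 listed glutamate receptor and postsynaptic genes 22 were tested, with 13 (59.1%) lower and 0 higher (median -3.71). Grin2a, an NMDA receptor subunit, had 0 and 2 counts in hypoxia against 266 and 142 CPM, and Gria1, an AMPA receptor subunit, 0 and 0.144 CPM against 107 and 110 (-10.53, SE 2.02). Grin2b, the NMDA receptor subunit of young neurons (GRCm38 chr6:135713233-136173511), was present in all libraries, at 142 and 65.0 CPM against 623 and 657 (-2.63, SE 0.53). Of the 7 members of this list at 10 CPM or more in all 4 libraries, Grin2b was the 1 that was lower, and the median of the 7 was 0.12. Likewise 1 of 4 such vesicle genes was lower, with a median of -0.01, and every other tested member of the 2 lists was under 10 CPM in at least 1 library.

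Ion channel genes followed. Of 21 listed sodium and calcium channel genes 19 were tested, with 13 (68.4%) lower and 0 higher (median -3.96). Scn2b, a sodium channel beta subunit, stood at 158 and 199 CPM in hypoxia against 4202 and 1358 in normoxia (-3.96, SE 0.69). Scn3b, another, stood at 0.0722 and 0.115 CPM against 33.4 and 21.8 (-8.16, SE 1.72). Of 18 tested GABA receptor and chloride transporter genes 11 (61.1%) were lower and 2 (11.1%) higher (median -1.26), while the 6 at 10 CPM or more in all 4 libraries split into 2 higher and 2 lower, with a median of 0.36. Among the higher ones, Slc12a2 (NKCC1), the chloride importer that makes GABA depolarising in immature cells, stood at 333.4 and 213 CPM against 36.9 and 43.8 (2.76, SE 0.50). Of 16 tested potassium channel genes 7 (43.8%) were lower and 2 (12.5%) higher, and without either hypoxic library 13 were lower, without normoxic replicate 1 12. Their median was -1.12, but 0.23 without normoxic replicate 2, and the 3 at 10 CPM or more in all 4 libraries had 2 higher, 0 lower and a median of 1.91. Kcnd2, an A-type channel, stood at 0.289 and 0.519 CPM against 66.4 and 17.9 (-6.70, SE 1.62).

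General neuron markers were lower in 9 of 15 tested genes (60.0%) and higher in 2 (13.3%), with a median of -2.95. Of the 6 at 10 CPM or more in all 4 libraries 2 were higher and 1 lower, with a median of 0.48. The higher ones were Map2 and Elavl3. Map2 stood at 127 and 242 CPM in hypoxia against 58.4 and 111 in normoxia (1.12, SE 0.61). Elavl3 stood at 111 and 128 CPM against 88.7 and 104 (0.31, SE 0.48). Tubb3 (0.64, SE 0.79) and Dcx (1.11, SE 1.14) had positive fold changes with overlapping groups. Stmn2, a microtubule regulator of growing axons, stood at 0.0722 and 0.0576 CPM in hypoxia against 21.3 and 29.9 in normoxia (-8.55, SE 1.76). Snhg11, a long noncoding RNA of neurons, stood at 50.6 and 79.6 CPM against 530 and 473 (-2.95, SE 0.45). Olfactory interneuron lineage genes were lower in 5 of 11 tested genes (45.5%) and higher in 1 (9.09%). The 4 at 10 CPM or more in all 4 libraries had 1 higher and 1 lower, with a median of -0.05. Among the lower ones was Gad1, which makes GABA, at 0.0722 and 0.0288 CPM against 14.4 and 61.0 (-9.44, SE 1.97). Cortical layer genes lay at the background, with 3 of 14 lower (21.4%) and 2 higher (14.3%). Activity-dependent immediate early genes were lower in 6 of 18 (33.3%) and higher in 2 (11.1%). The 10 at 10 CPM or more in all 4 libraries had 2 higher and 2 lower, with a median of -0.17. Npas4, induced by calcium entry in active neurons, had 1 and 0 counts in hypoxia against 26.2 and 86.7 CPM, and Arc, which acts at synapses, stood at 0.0722 and 0.0576 CPM against 12.97 and 22.7 (-8.03, SE 1.85). Summed over the list, general neuron markers came to 505 and 884 CPM in hypoxia against 1518 and 1386 in normoxia, and cortical layer markers to 3647 and 3597 against 2818 and 3061. The part of neurons or their RNA among the marked cells in the lower synapse, receptor and channel genes was not tested.

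**Figure D3:**
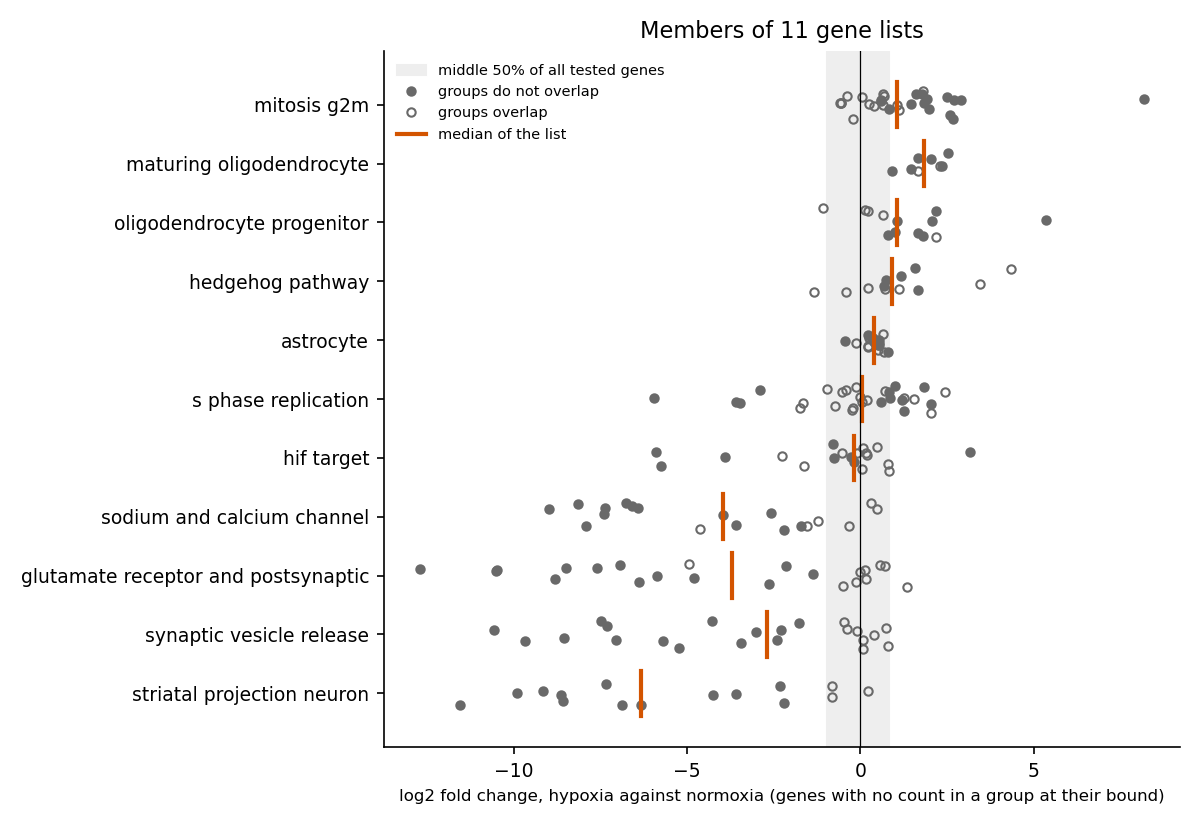
Each point is 1 tested gene of 11 lists, at its log2 fold change of hypoxia against normoxia (x axis, genes with no count in a group at their bound); filled points are genes whose groups do not overlap, orange bars are list medians, and the grey band holds the middle 50% of all tested genes, from -0.97 to 0.83. Mitosis and oligodendrocyte lists have medians right of 0, at 1.05 to 1.85, and striatal, synapse and channel genes spread to the left, with medians of -2.71 to -6.34.

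**Figure D4:**
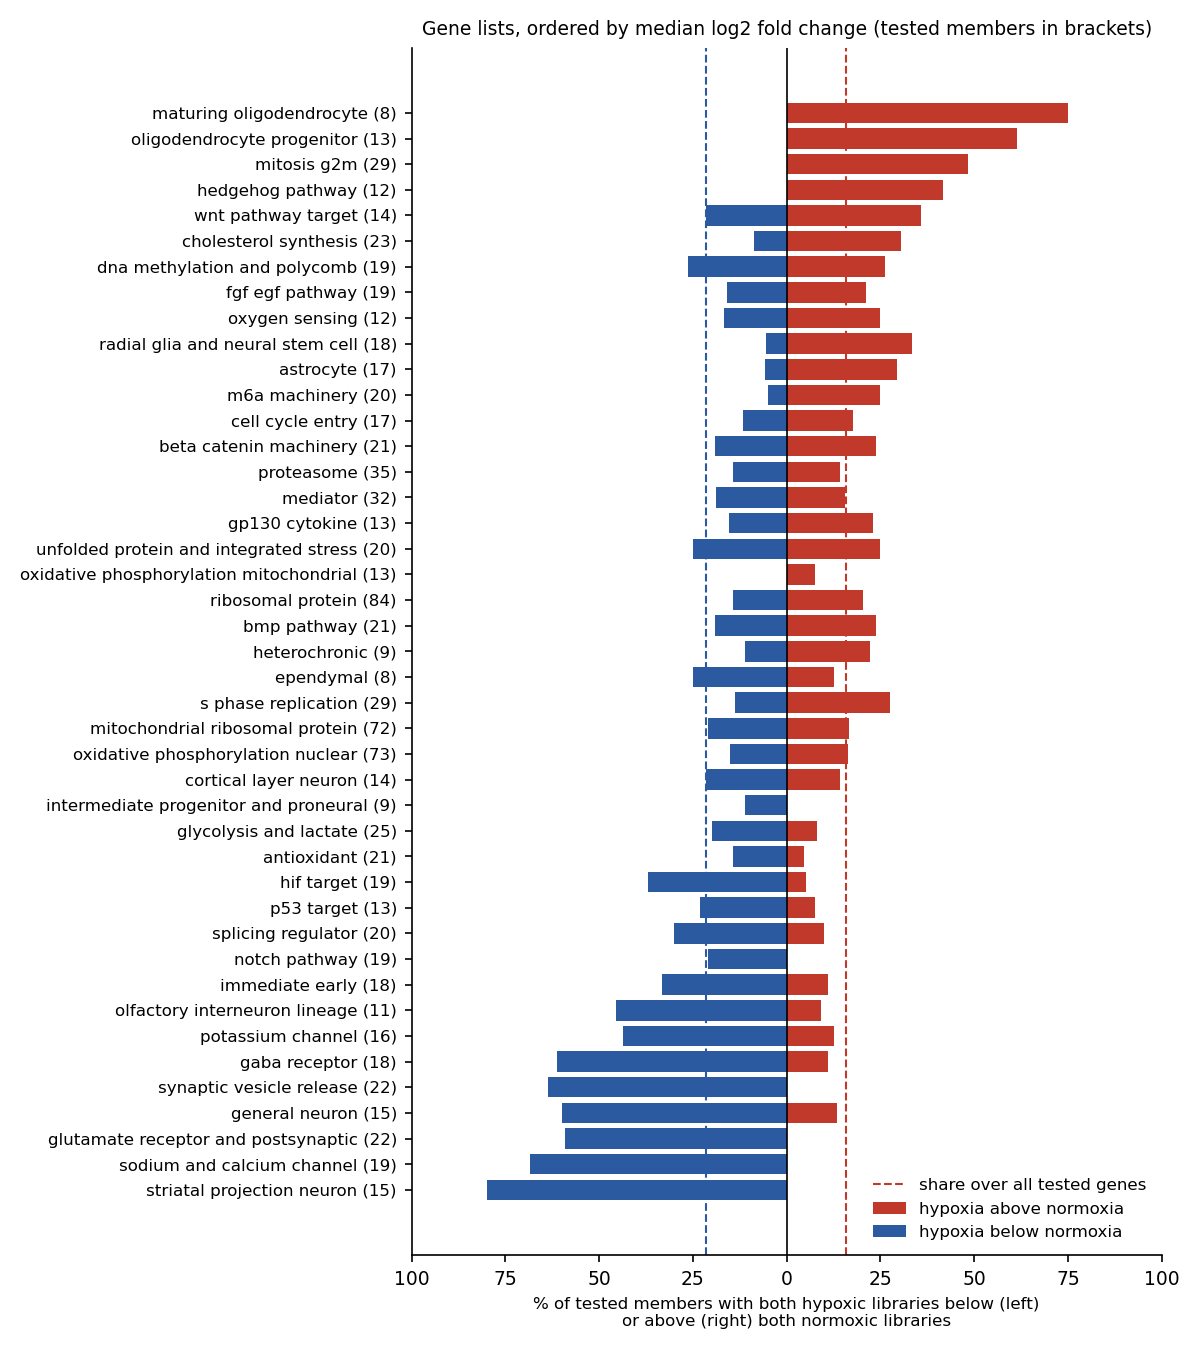
For 43 gene lists with at least 8 tested members (rows, number tested in brackets, ordered by median log2 fold change), the percentage of tested members with both hypoxic libraries above (red, to the right) or below (blue, to the left) both normoxic libraries. Dashed lines mark the shares over all tested genes, 15.9% and 21.5%. Oligodendrocyte, mitosis and hedgehog lists reach 41.7% to 75% on the right, and the striatal, synapse and sodium and calcium channel lists 59.1% to 80.0% on the left.

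HIF target genes showed no larger share on the higher side at P12 than genes in general. Of 25 listed targets 19 were tested, 8 with a positive and 11 with a negative fold change; 1 (5.26%) was higher and 7 (36.8%) lower without overlap (median -0.19). Ankrd37, a compact HIF target, had no count in hypoxia and 5.31 and 4.12 CPM in normoxia, at least 59.4-fold lower. Its promoter is shown because it holds several copies of the core of the hypoxia response element, ACGTG or GCGTG, in capitals on either strand (RefSeq, GRCm38.p6 chr8:45999801-46000100, minus strand).
Ankrd37: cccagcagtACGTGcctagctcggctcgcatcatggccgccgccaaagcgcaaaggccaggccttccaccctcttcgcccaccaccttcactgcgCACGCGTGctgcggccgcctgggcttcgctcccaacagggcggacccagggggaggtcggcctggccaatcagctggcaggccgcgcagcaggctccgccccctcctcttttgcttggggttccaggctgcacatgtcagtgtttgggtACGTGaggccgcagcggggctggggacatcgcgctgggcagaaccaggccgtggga
This core stood in 18 of 20 target promoters with a RefSeq entry (90.0%) and in 43.8% of all promoters. Ankrd37's exons overlap those of Lrp2bp and Ufsp2, and its counts are few.

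Other classical targets split or overlapped. Vegfa, the vessel growth factor, stood at 0.433 and 0.807 CPM in hypoxia against 0.716 and 3.15 in normoxia (-1.64, SE 1.38), and Slc2a1, the glucose transporter GLUT1, at 31.9 and 38.5 against 38.5 and 11.9 (0.48, SE 1.08). Ero1l, an oxidase of protein folding, had 0.0963 and 0.259 CPM against 15.1 and 4.67 (-5.77, SE 1.87). The collagen prolyl hydroxylases differed: P4ha1 stood at 1.13 and 1.64 CPM against 33.4 and 8.30 (-3.91, SE 1.62), P4ha2 at 34.1 and 67.6 against 0.0231 and 11.2 (3.18, SE 2.46) and P4ha3 at 29.5 and 56.6 against 0.462 and 0.337 (6.74, SE 1.44). Of the 12 tested oxygen sensing genes 3 (25%) were higher and 2 (16.7%) lower. Egln2, a HIF prolyl hydroxylase, stood at 138 and 116 CPM against 60.6 and 64.3 (1.02, SE 0.51), and Arnt, the DNA-binding partner of HIF, at 0.0722 and 0.0864 against 0.785 and 16.1 (-6.68, SE 2.35). Glycolysis and lactate genes were at or below the background, with 2 of 25 higher (8.00%) and 5 lower (20%). Eno2, the neuronal enolase, stood at 0.169 and 0.0576 CPM against 12.6 and 15.4 (-6.90, SE 1.86). Slc2a3 (GLUT3), the neuronal glucose transporter, stood at 12.33 and 12.99 CPM against 69.4 and 122 (-2.92, SE 0.78).

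Of the genes at 10 CPM or more in all 4 libraries, the ones with the smallest unadjusted p in each direction do not depend on a missing value. Meg3, an imprinted long noncoding RNA expressed from the maternal allele (GRCm38 chr12:109541001-109571726), stood at 37.3 and 28.3 CPM in hypoxia against 797 and 955 in normoxia (-4.74, SE 0.42). Akap5, which anchors protein kinase A at the postsynapse, stood at 78.2 and 28.7 CPM against 395 and 274 (-2.64, SE 0.67). Gas7, a protein of neurite outgrowth, stood at 214 and 700 CPM against 4443 and 2662 (-2.96, SE 0.72) and varied several-fold between the hypoxic libraries. On the higher side, Tnr (tenascin-R), a matrix protein made by oligodendrocyte lineage cells and some neurons, stood at 99.1 and 245 CPM against 27.6 and 22.4 (2.79, SE 0.70). Prkar2a, a regulatory subunit of protein kinase A, stood at 132 and 151 CPM against 25.4 and 32.1 (2.30, SE 0.57). Rgcc, a regulator of cell cycle progression, stood at 491 and 564 CPM against 212 and 209 (1.33, SE 0.34). Lypla1, which removes palmitate from proteins, stood at 150 and 126 CPM against 14.96 and 27.0 (2.72, SE 0.65), and Ftsj3, a factor of ribosomal RNA processing, at 76.4 and 141 against 17.6 and 17.1 (2.64, SE 0.73).

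**Figure D5:**
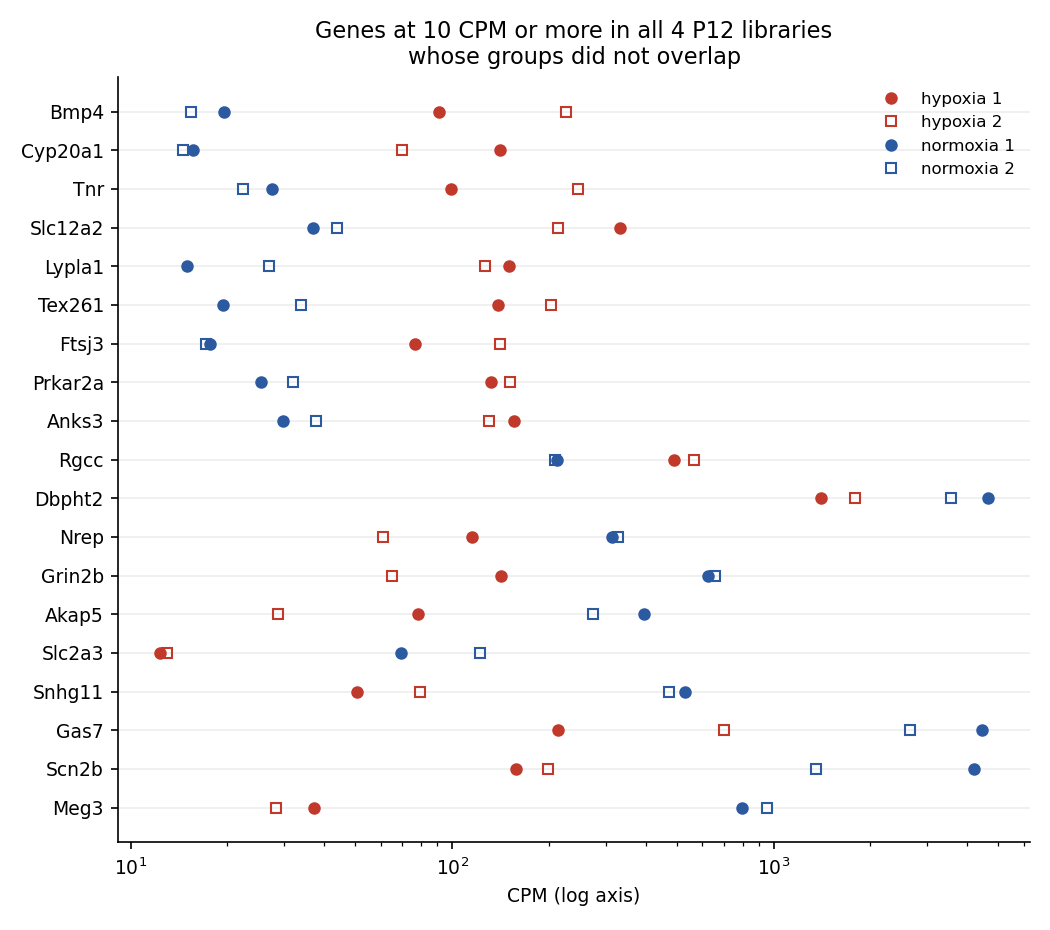
CPM (log axis) in the 2 hypoxic (red) and 2 normoxic (blue) libraries for 19 genes at 10 CPM or more in all 4, 10 higher and 9 lower, of smallest edgeR p among genes whose groups do not overlap, ordered by fold change. From Bmp4 (91.1 and 226 against 19.6 and 15.4) to Meg3 (37.3 and 28.3 against 797 and 955), the red and blue points are separate in every row.

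Genes present in 1 group and near absent in the other were more often the absent ones of hypoxia. Of 7265 genes at 10 CPM or more in both normoxic libraries, 140 (1.93%) had at most 3 counts in each hypoxic library, whereas of 5733 at 10 CPM or more in both hypoxic libraries 8 (0.14%) had at most 3 counts in each normoxic one. Among the former, Pcp4l1, a small relative of a calmodulin-binding protein, had no count in hypoxia and 221 and 351 CPM in normoxia, at least 3605-fold lower. Camkv, a synaptic pseudokinase likewise without a count in hypoxia, had 167 and 249 CPM in normoxia, at least 2622-fold lower in hypoxia. Slc4a10, a bicarbonate transporter of neurons, had 1 count in each hypoxic library against 55.9 and 59.6 CPM, a ratio of 2201 with a 95% counting interval of 609 to 18176. Among the latter, Zfp677, a zinc finger gene, stood at 47.8 and 75.5 CPM in hypoxia and had 3 and 0 counts in normoxia, a ratio of 1710 (585 to 8296). Prkra, an activator of the kinase PKR, had 58.2 and 57.6 CPM against 0.231 and 0.193 (8.07, SE 1.29), and E2f8, a repressor of the cell cycle, 47.0 and 68.7 against 0.346 and 0.144 (7.86, SE 1.41). The intervals and floors reflect counting error alone: the reads carry no molecular identifiers and are not independent molecules.

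Most markers of blood, vessel and immune cells were at or near 0 in all 4 libraries. No count in any library was found for 6 of 12 endothelial genes (Cldn5, Pecam1, Cdh5, Tek, Ly6c1 and Emcn), and the list summed to 1.8 and 0.1 CPM in hypoxia against 8.0 and 0.8 in normoxia. Vwf, the von Willebrand factor of endothelium, which was not on that list, nevertheless had 16.5 and 91.0 CPM in hypoxia against 1 and 0 counts in normoxia. Microglia genes summed to 0.0 and 68.7 CPM against 43.3 and 54.5, with 5 of 13 at 0 throughout. Of 12 mural cell genes 6 had no count, but Rgs5, a pericyte marker, stood at 888 and 795 CPM in hypoxia against 1818 and 1408 in normoxia (-0.94, SE 0.33). Erythrocyte genes summed to 3.1 and 0.029 CPM against 0 and 0 and choroid plexus genes to 7.3 and 45.3 against 18.9 and 14.2. Ependymal genes lay at 94.2 and 109 CPM against 123 and 90.8. In summed CPM the mural list was lower in both hypoxic libraries and the erythrocyte list higher in both, through 128 counts of Alas2 in one hypoxic library and 1 count of Hba-a1 in the other. The part of these cell types in the differences above was not tested.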

How the data were processed

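Raw counts per gene were deposited, a file for each library, and the authors made them with cutadapt, STAR and Subread on GRCm38, per the submitters' processing notes. Versions, annotation and strand setting are not given in the sources used here. Each file held 55487 rows; 1980 without a gene name (0.238% to 0.266% of the counts at P12) were left out, and 14 rows bear dates in place of symbols and are not named. The 53507 gene rows carry no coordinates, which came from GENCODE M21 (51695 rows matched).

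Counts of the 4 P12 libraries were analysed with edgeR 4.0.16 in R 4.3.3 (TMM; filterByExpr, minimum count 10, minimum total 15; glmQLFit and glmQLFTest, 2 residual degrees of freedom), two-sided, with Benjamini-Hochberg adjustment over 14836 genes and a threshold of 0.05. The embryonic libraries were kept out of the fit because the P12 replicates vary more than theirs. DESeq2 1.42.0 and limma 3.58.1 were alternatives, with other scalings, filters, a replicate block and each library left out. Folds against no count use 3 counts per library (0.0693 to 0.0864 CPM) as the floor, and 95% intervals are exact (Clopper-Pearson). The pipeline was tested on simulated data.

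Named genes are, in each direction, the 10 of smallest p among genes whose groups do not overlap and whose higher group has at least 10 CPM, the 10 at 10 CPM or more in all 4 libraries, up to 4 per list from 48 gene lists, and 16 chosen for the study's topic; not all are described, and some are withheld and not reported here. Markers reported as uncounted, and Shh, Mag, Mobp, Mog, Gli1, Smo, Sufu, Sox10, Myc, Alas2 and Hba-a1, were named after their values were seen. Map2, Elavl3, Tubb3 and Dcx also fall outside these rules. So do the Wnt list members Notum, Sp5, Znrf3, Ccnd1, Tcf7l1, Tcf7l2, Sfrp1 and Wif1. Members, lists and rules were chosen with earlier results of these data known. Replicate numbers come from the titles and pair nothing: no label links them, and deviations of equal numbers correlated at -0.04.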

Additional observations from a re-analysis of the deposited data

How the results depend on the processing

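The count of called genes depended on the tool and on which libraries set the spread. edgeR on the 4 libraries called 0 genes under library totals, relative log expression or upper-quartile scaling, without a low-count filter, with at least 5 CPM in 2 libraries, without mitochondrial, ribosomal protein and haemoglobin genes, and with any 1 library left out (0 to 0 in each direction). A replicate block also called 0 (79 higher and 761 lower at an unadjusted p under 0.05) and changed no call. limma-voom called 0 (248 higher and 1463 lower at an unadjusted p under 0.05). DESeq2 called 116 higher and 1247 lower on the P12 libraries and 1367 and 2599 on all 8, and edgeR on all 8 called 39 and 563. Groups that do not overlap numbered 4415 to 6032 higher and 5421 to 7050 lower with 1 library left out. With a mean of at least 10 CPM, a limit chosen after seeing the data, 1547 were lower, and with 10 CPM in all 4 libraries, also chosen after, 1241 higher and 517 lower.

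The scaling moved the median log2 fold change of all genes from 0.07 to 0.17 (relative log expression), -0.14 (upper quartile) and -0.04 (totals), and list medians within about 0.2 of 0 therefore have no firm sign. Of 44 list medians, 26 moved by more than the spread between replicates when either hypoxic library was left out, 15 and 14 when normoxic replicate 1 or 2 was, 18 with the replicate block and 20 in limma-voom. On leaving out hypoxic replicates 1 and 2 and normoxic replicates 1 and 2 in turn, 10, 9, 4 and 9 medians changed sign, among them gp130 cytokine (0.28, to -1.97 at the lowest), oxygen sensing (0.41 to -0.34 without hypoxic replicate 1), FGF and EGF (0.41 to -0.19 without hypoxic replicate 2) and potassium channels (-1.12 to 0.23 without normoxic replicate 2). With 1 library left out the medians kept their sign for mitosis (0.70 to 2.07), oligodendrocyte progenitor (0.83 to 1.69), maturing oligodendrocyte (1.0 to 2.23), hedgehog (0.32 to 1.74), striatal (-7.71 to -3.34), vesicle (-7.16 to -2.13), glutamate (-5.76 to -2.53) and sodium and calcium channel (-6.93 to -2.94) genes. A gene whose groups do not overlap keeps its direction when 1 library is dropped, apart from rescaling. Most tested members of the oligodendrocyte, striatal, vesicle, glutamate and sodium and calcium channel lists do not overlap. The signs of their medians were thus largely fixed beforehand and are no separate test. The number of astrocyte genes higher without overlap was 2 with library totals, 8 with relative log expression and 1 with upper-quartile scaling, against 5. Striatal, synaptic vesicle, sodium and calcium channel and mitosis counts stayed within 1 gene of their values under these 3 scalings.

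Changes of sign were checked for 93 tested genes named by the rules above, and 6 changed sign somewhere, all with overlapping groups. Genes named outside those rules were not checked. Many named genes were chosen because their groups do not overlap, and such genes could hardly change sign with 1 library left out. Eomes was -0.22 with library totals, -0.36 in limma-voom, -0.23 with the replicate block and -0.18 with upper-quartile scaling. Neurog2 was 0.22 in DESeq2 on 8 libraries, 0.12 in DESeq2 on 4 and with relative log expression, 2.03 in limma-voom, 0.072 without the filter and 1.94 with the replicate block. With 1 library left out, log2 fold changes ran from -1.74 to 1.08 for Eomes, -0.94 to 5.29 for Neurog2, -6.91 to 1.83 for Mettl3, -0.61 to 1.21 for Pax6, -0.10 to 1.63 for Slc2a1 and -0.0041 to 0.81 for Sox2. The cause was not tested. At these depths 3 counts, the floor, correspond to 0.0693 to 0.0864 CPM.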

Other observations

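Cholesterol synthesis genes, which supply the membranes of myelin, were higher without overlap in 7 of 23 tested genes (30.4%, against 15.9% of all genes) and lower in 2 (8.70%), with a median log2 fold change of 0.61. The 13 at 10 CPM or more in all 4 libraries had 5 higher and 1 lower. Over all genes at that level 25.6% were higher and 10.7% lower, which is the nearer background. Msmo1, a sterol oxidase of the pathway, stood at 145 and 145 CPM in hypoxia against 59.0 and 73.2 in normoxia (1.14, SE 0.49), and Sqle, squalene epoxidase, at 263 and 339 against 18.8 and 133 (1.99, SE 1.0). Stress genes were mixed, with 15.9% higher and 21.5% lower over all tested genes. Of 20 unfolded protein and integrated stress genes 5 (25%) were higher and 5 (25%) lower. The 15 of them at 10 CPM or more in all 4 libraries had 4 higher and 2 lower. Of 13 p53 targets 1 (7.69%) was higher and 3 (23.1%) lower. Of 21 antioxidant genes 1 (4.76%) was higher and 3 (14.3%) lower. Asns, an asparagine synthetase induced by the integrated stress response, stood at 0.0482 and 0.0576 CPM against 31.9 and 8.67 (-8.50, SE 2.0), while Dnajc3, a chaperone of the endoplasmic reticulum, stood at 224 and 206 against 82.0 and 95.9 (1.27, SE 0.42). Sod2, the mitochondrial superoxide dismutase, stood at 149 and 77.8 CPM against 577 and 272 (-1.91, SE 0.61).

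Genes of basic cell functions lay near the background of 15.9% higher and 21.5% lower. Cytosolic ribosomal protein genes were higher in 17 of 84 (20.2%) and lower in 12 (14.3%). Mitochondrial ribosomal protein genes were higher in 12 of 72 (16.7%) and lower in 15 (20.8%). Nuclear genes of oxidative phosphorylation were higher in 12 of 73 (16.4%) and lower in 11 (15.1%), and proteasome genes in 5 and 5 of 35 (14.3% each). Of 13 mitochondrially encoded genes 1 was higher and 0 lower. Mediator subunits split by gene more than by list, with 5 higher and 6 lower of 32: Med24 stood at 0.144 and 0.115 CPM in hypoxia against 78.9 and 32.5 in normoxia (-8.71, SE 1.48), and Med26 at 15.7 and 26.2 against 0.115 and 0.0241 (8.16, SE 2.01). DNA methylation and polycomb genes were higher in 5 of 19 (26.3%) and lower in 5 (26.3%). Splicing regulators were higher in 2 of 20 (10%) and lower in 6 (30%). Heterochronic genes, higher in 2 of 9 (22.2%) and lower in 1 (11.1%), completed the lists. Rbfox1, a splicing regulator of neurons, stood at 2.55 and 8.79 CPM against 40.9 and 66.6 (-3.24, SE 1.22).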
